A study of Mus musculus with 6 samples.

Results

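The histone genes described here are the linker histones H1, the core histone genes that are expressed during DNA replication, and the replacement variants of H2A and H3. Members were all non-control probes whose RefSeq identifier maps to a current mouse symbol beginning with H1f, H2ac, H2bc, H3c, H4c, H2az, H2ax, H3f3 or Macroh2a. This rule matched 81 genes of the reference table, of which 42 were on the arrays through 54 probes, out of 18745 named genes and 41174 probes in all. They fell into 10 linker genes, 10 replication-dependent H2A genes, 7 H2B genes, 3 H3 genes and 4 H4 genes, 6 H2A variant genes and the 2 genes of H3.3.

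Mouse embryonic stem cells of strain 129/Ola were differentiated in serum-free N2B27 medium on gelatin and were labelled as day 3 cells. One group received trichostatin A (TSA), a small molecule that inhibits zinc-dependent histone deacetylases, for 24 h, and the control group received the solvent DMSO for 24 h, with 3 independent experiments in each. The labels give no dose of TSA and no mutation or transgene. Total RNA was amplified with a low-input labelling kit, labelled with Cy3 and put on 1-colour Agilent arrays, 6 in all on 3 slides. The TSA sample and the DMSO sample of an experiment lay side by side on 1 slide, always at the same places, and place and treatment cannot be told apart.

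Core histones form the octamer around which DNA is wrapped, and linker histones bind where DNA enters and leaves it and favour compact chromatin. Replication-dependent histone genes lie in clusters, have no introns, are transcribed mainly in S phase, and make messengers that end in a stem-loop in place of a poly(A) tail. Replacement variants such as H3.3, H2A.Z and macroH2A are made throughout the cell cycle from polyadenylated messengers, and so is H1.0, the product of H1f0, which accumulates in cells that stop dividing and was among the first genes known to respond to deacetylase inhibitors. Labelling kits of the kind named here prime on poly(A), so for the stem-loop messengers the signal covers only what was primed or carries a tail, and members of the clustered families are so alike in sequence that a probe may bind several of them.

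Levels are given as log2 of the processed signal relative to the 75th percentile of the array, so 0 is the brightness that 3 in 4 spots do not exceed, and differences are TSA minus DMSO on that scale with the moderated standard error of limma. Of the 42 genes, 39 were tested because their signal was well above background on 3 or more arrays, 38 of them on all 6. H2ac6 passed with 1 TSA array and 3 DMSO arrays. The 3 genes not tested were H1f7, a linker histone of spermatids, with 0 TSA arrays and 2 DMSO arrays above background, H2bc23 with 1 TSA array, and H2bc6 with none. A gene is given by its brightest tested probe, and none of the 8 genes with several probes had tested probes of opposite sign.

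The arrays differed in brightness, and TSA replicate 2 stood apart. Its 75th percentile was 310 intensity units, against 671 and 884 on the other TSA arrays and 632 to 924 on the DMSO arrays, and it correlated with the other TSA arrays at 0.931 and 0.939. Added control RNAs, on the same relative scale, were 1.43 higher in TSA than in DMSO on slide 2, and 0.04 and 0.11 higher on slides 1 and 3. Histone levels moved with this array: on TSA replicate 2 the median histone gene exceeded the mean of the remaining TSA arrays by 1.07, against 0.37 over all tested genes and 0.58 over the brightest 10% of them, which holds 23 of the 39 histone genes. The matching value for DMSO replicate 2 was 0.19 for histone genes. Many results that rest on TSA replicate 2 are given with and without it, but not all.

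In TSA, 1 of the 39 tested histone genes rose, the linker histone gene H1f0, and 0 fell (limma, Benjamini-Hochberg adjusted p under 0.05 over all 28160 tested probes). Over all 14523 tested genes, 1.36% rose and 0.0551% fell. Arrays of 1 slide deviated from their group means together, and a slide-blocked fit, with the slide as a further term, gave 2 histone genes that rose, H1f0 and H1f6, and 0 that fell, against 3.2% of all genes that rose and 0.145% that fell. At an unadjusted p under 0.05 4 histone genes were higher and 1 lower without the block, against 12.1% and 2.8% of all tested genes. With the block 6 were higher and 2 lower, against 17.4% and 5.47%, so these counts were near the shares of all genes. On all 3 TSA arrays, 7 histone genes lay above all 3 DMSO arrays, a share near the 16.3% of all tested genes, and they were H1f0, H1f6, H1f10, H2bc4, H3c14, H3c4 and H3f3b. H3f3a and Macroh2a3 lay below on all 3, against 8.36% of all tested genes, and the other 30 overlapped.

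H1f0 was the histone gene with the lowest adjusted p without the block, and H1f6 with it, by a small margin. Its level was 3.96, 3.87 and 3.68 on TSA arrays 1, 2 and 3, against 2.37, 2.20 and 2.24 on the DMSO arrays, so the groups were well apart and TSA replicate 2 lay within its group. H1f0 averaged 3.84 ± 0.14 in TSA and 2.27 ± 0.09 in DMSO (SD, n = 3 each), a difference of 1.57 ± 0.19 or 2.97-fold (limma adjusted p = 0.0308, and 0.0363 in the slide-blocked fit). On slides 1, 2 and 3 the difference was 1.59, 1.67 and 1.44. Both other probes of H1f0 were far dimmer and gave 1.56 ± 0.32 (adjusted p = 0.0942) and 1.54 ± 0.28 (adjusted p = 0.0722), so 3 probes gave the same size of difference, and in the slide-blocked fit both also passed (adjusted p = 0.0422 and 0.0393). Without TSA replicate 2, H1f0 gave 1.55 (adjusted p = 0.0205). Leaving out any other single array ended the call, with differences of 1.51 to 1.65 and adjusted p of 0.0802 to 0.184.

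H1f6 encodes the testis linker histone H1t, which is normally made in spermatocytes. Its level was -0.58, 0.34 and -1.42 on the TSA arrays, against -2.69, -2.28 and -3.14 on the DMSO arrays. Every TSA array lay above every DMSO array, and the levels followed the slide in both groups, with slide 2 highest and slide 3 lowest. The difference was 2.15 ± 0.47, or 4.43-fold (limma adjusted p = 0.111), and in the slide-blocked fit its standard error was 0.24 and it passed (adjusted p = 0.0360). On slides 1, 2 and 3 the difference was 2.12, 2.62 and 1.71. Without TSA replicate 2 it was 1.70 (adjusted p = 0.0718), and without both arrays of slide 2 it was 1.91 (adjusted p = 0.0903).

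H1f10, which encodes the replacement linker histone H1.10, had levels of 0.83, 2.28 and 0.85 on the TSA arrays, against 0.16, 0.61 and 0.44 on the DMSO arrays, with TSA replicate 2 far above the rest. Its difference was 0.92 ± 0.42 (limma adjusted p = 0.481), and 0.44 without TSA replicate 2 (adjusted p = 0.297). The 5 replication-dependent linker genes H1f1 to H1f5, which encode the main somatic H1 subtypes of dividing cells, gave 0.54, 0.31, 0.13, 0.22 and 0.60, in that order, and their groups overlapped in each case. Their median was 0.31 over all arrays, -0.11, 0.97 and 0.08 on slides 1, 2 and 3, and -0.04 without TSA replicate 2. H1f8, the oocyte linker histone H1foo, gave 0.43 ± 0.37 (adjusted p = 0.676), with 0.27, 0.76 and 0.25 on the 3 slides and 0.07 without TSA replicate 2. The contrast among linker genes was therefore between H1f0 and H1f6, whose lowest slide value was 1.44, and H1f1 to H1f5, whose values on slides 1 and 3 lay between -0.28 and 0.33. On slide 2 the values of H1f1 to H1f5 were 0.86 to 1.39, so the contrast was smaller there. H1f10 lay between, at 0.67, 1.67 and 0.41 on slides 1, 2 and 3. The contrast was not itself tested.

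**Figure D1:**
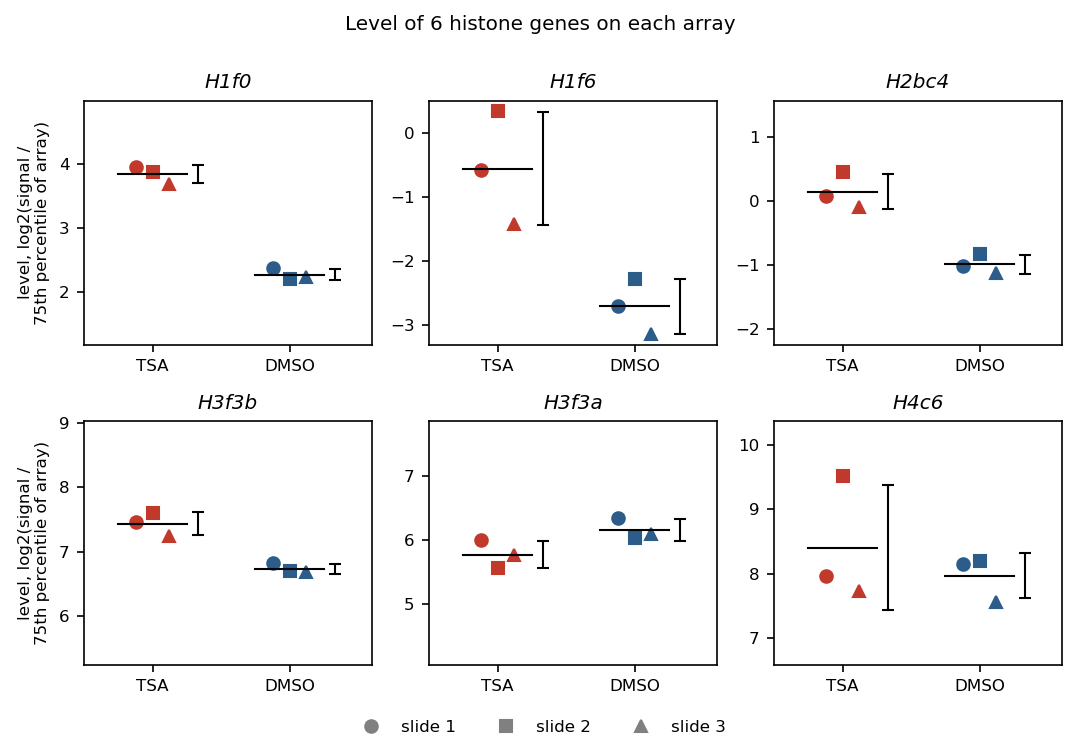
Level of 6 histone genes on each array, as log2 of the processed signal relative to the 75th percentile of the array, with TSA left of DMSO, the shape of a point for its slide, a line for the mean and a bar for the SD (n = 3). All panels span the same number of log2 units. H1f0, H1f6, H2bc4 and H3f3b lie higher on all TSA arrays and H3f3a lower, while H4c6 is high on TSA replicate 2 and overlaps with DMSO otherwise.

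The promoters of these linker genes differ in the motifs known for histone genes. The 250 bases before the start are shown for H1f0 and H1f6, the genes with the largest differences, and for H1f4, a replication-dependent gene with a difference of 0.22. Capitals mark matches to the H1 box AAACACA, the CCAAT box, the TATA box TATAAA, the GC box GGGCGG and the octamer ATTTGCAT, each searched on both strands, and the sequences are from RefSeq on GRCm38.p6, where H1f0 is chr15:79027962-79028211 on the plus strand, H1f6 is chr13:23695561-23695810 on the plus strand and H1f4 is chr13:23622559-23622808 on the minus strand.
H1f0: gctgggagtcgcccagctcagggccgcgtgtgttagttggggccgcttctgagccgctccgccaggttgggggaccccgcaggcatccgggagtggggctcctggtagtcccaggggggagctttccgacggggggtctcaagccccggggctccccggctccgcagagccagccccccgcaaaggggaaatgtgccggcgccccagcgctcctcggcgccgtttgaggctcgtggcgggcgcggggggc
H1f6: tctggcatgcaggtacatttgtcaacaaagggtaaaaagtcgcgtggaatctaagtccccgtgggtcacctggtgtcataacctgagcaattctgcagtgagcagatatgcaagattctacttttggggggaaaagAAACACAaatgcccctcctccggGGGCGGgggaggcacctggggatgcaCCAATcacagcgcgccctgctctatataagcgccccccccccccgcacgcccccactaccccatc
H1f4: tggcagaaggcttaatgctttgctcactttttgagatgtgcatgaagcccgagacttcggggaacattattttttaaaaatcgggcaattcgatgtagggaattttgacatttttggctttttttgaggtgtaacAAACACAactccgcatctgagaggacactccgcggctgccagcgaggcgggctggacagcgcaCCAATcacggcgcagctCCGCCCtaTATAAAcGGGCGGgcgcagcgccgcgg
The window of H1f0 was 74.4% G or C and held none of the 5 motifs, while that of H1f4 held the H1 box, the CCAAT box, the TATA box and 2 GC boxes. H1f6 shared the H1 box with H1f4 at nearly the same place, its first base 114 bases before the start in H1f6 and 115 in H1f4, and held a CCAAT box and a GC box but no TATAAA. The window of H1f6 does hold the similar letters TATATAA, which were not searched for and are not marked. The H1 box was in 5 of the 10 linker promoters, those of H1f2, H1f3, H1f4, H1f5 and H1f6, and in 6.25% of all 32851 mouse promoter windows of this length. CCAAT was in 7 of 10 linker windows (33.8% of all), TATAAA in 4 (12.4% of all) and GGGCGG in 5 (32.7% of all). The octamer was in 0 linker windows and in 9 of 21 windows of replication-dependent core histone genes (1.6% of all). These matches describe letters in these windows and say nothing of binding.

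Among the replication-dependent core histones, H2bc4, an H2B gene of the chromosome 13 cluster, stood out from its class without passing the test over all arrays. Its level was 0.08, 0.45 and -0.10 on the TSA arrays, against -1.01, -0.83 and -1.12 on the DMSO arrays, and the groups did not overlap. The mean was 0.15 ± 0.28 in TSA and -0.99 ± 0.14 in DMSO (SD, n = 3 each), a difference of 1.13 ± 0.23 or 2.19-fold (limma adjusted p = 0.0860, and 0.0536 in the slide-blocked fit). The 3 slides gave 1.09, 1.28 and 1.02. Without TSA replicate 2 the difference was 0.98 and passed (adjusted p = 0.0474), and without both arrays of slide 2 it was 1.06 (adjusted p = 0.0710).

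The other tested H2B genes gave smaller values than H2bc4. H2bc1, the testis H2B gene TH2B, gave 0.35, H2bc12 gave 0.34 and H2bc14 gave 0.35, and on slides 1 and 3 these 3 lay between -0.15 and 0.17. H2bc21 gave -0.14 ± 0.29 (limma adjusted p = 0.855) with negative values on each slide, at -0.01, -0.24 and -0.17.

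The medians of the H4 and H2A genes were highest on TSA replicate 2. H4c6, the H4 gene with the highest signal, had levels of 7.97, 9.52 and 7.73 on the TSA arrays, against 8.14, 8.19 and 7.56 on the DMSO arrays. TSA replicates 1 and 3 lay within the DMSO range and TSA replicate 2 lay above it. The 4 tested H4 genes, H4c1, H4c4, H4c6 and H4c14, gave 0.44 to 0.49, with a median of 0.46 over all arrays, -0.17, 1.37 and 0.18 on slides 1, 2 and 3, and -0.10 without TSA replicate 2. Of the 10 H2A genes, 9 gave 0.22 to 0.30 and H2ac6 gave -0.14, while H2ac1, H2ac20 and H2ac23, of those 9, were just below 0 in the authors' deposited table. The class median was 0.28 over all arrays, -0.22, 0.97 and 0.0020 on the 3 slides and -0.14 without TSA replicate 2. With array weights, which give a deviating array less say, the medians were -0.22 for H2A, -0.16 for H4 and -0.04 for H2B, and 0.08 for linker genes. None of these 14 genes was higher on all 3 slides, or lower on all 3.

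Before scaling, the signals of H2ac1 and H4c6 on TSA replicate 2 were near or above those on the other arrays. H2ac1, the H2A gene with the highest signal, had processed intensities of 433240, 407940 and 464470 on the TSA arrays, against 432860, 459880 and 466950 on the DMSO arrays, and was not marked as saturated. Its intensity on TSA replicate 2 was thus close to that on the other arrays, while the 75th percentile of that array, which is subtracted, was 310. After scaling, its levels were 9.34, 10.36 and 9.04 in TSA, against 9.42, 9.46 and 8.98 in DMSO. H4c6 had intensities of 167810, 226860 and 188080 in TSA, against 178480, 190530 and 174510 in DMSO, so it was brightest on TSA replicate 2. H1f0 ran the other way, with 10414, 4540.8 and 11352 units in TSA, against 3262.7, 2998.3 and 4363.6 in DMSO, so that its intensity on TSA replicate 2 was low like the array, and its level after scaling was like that of its group.

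The 3 tested H3 genes were higher in TSA at the mean. H3c14 had levels of 7.30, 7.92 and 7.12 in TSA, against 6.97, 6.87 and 6.71 in DMSO, without overlap, and gave 0.60 ± 0.26 (limma adjusted p = 0.457). H3c4 gave 0.57 ± 0.28 (adjusted p = 0.504), also without overlap, and H3c1 gave 0.41 ± 0.36 (adjusted p = 0.683), with overlap. H3c14, H3c4 and H3c1 gave 0.36, 0.32 and 0.02 without TSA replicate 2. The H3 median was 0.29, 1.03 and 0.39 on slides 1, 2 and 3, and 0.32 without TSA replicate 2, so H3 was the replication-dependent class whose median was above 0 on each slide. All tested genes had medians of -0.03, 0.30 and 0.03 on the 3 slides, 0.08 over all arrays and -0.03 without TSA replicate 2.

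**Figure D2:**
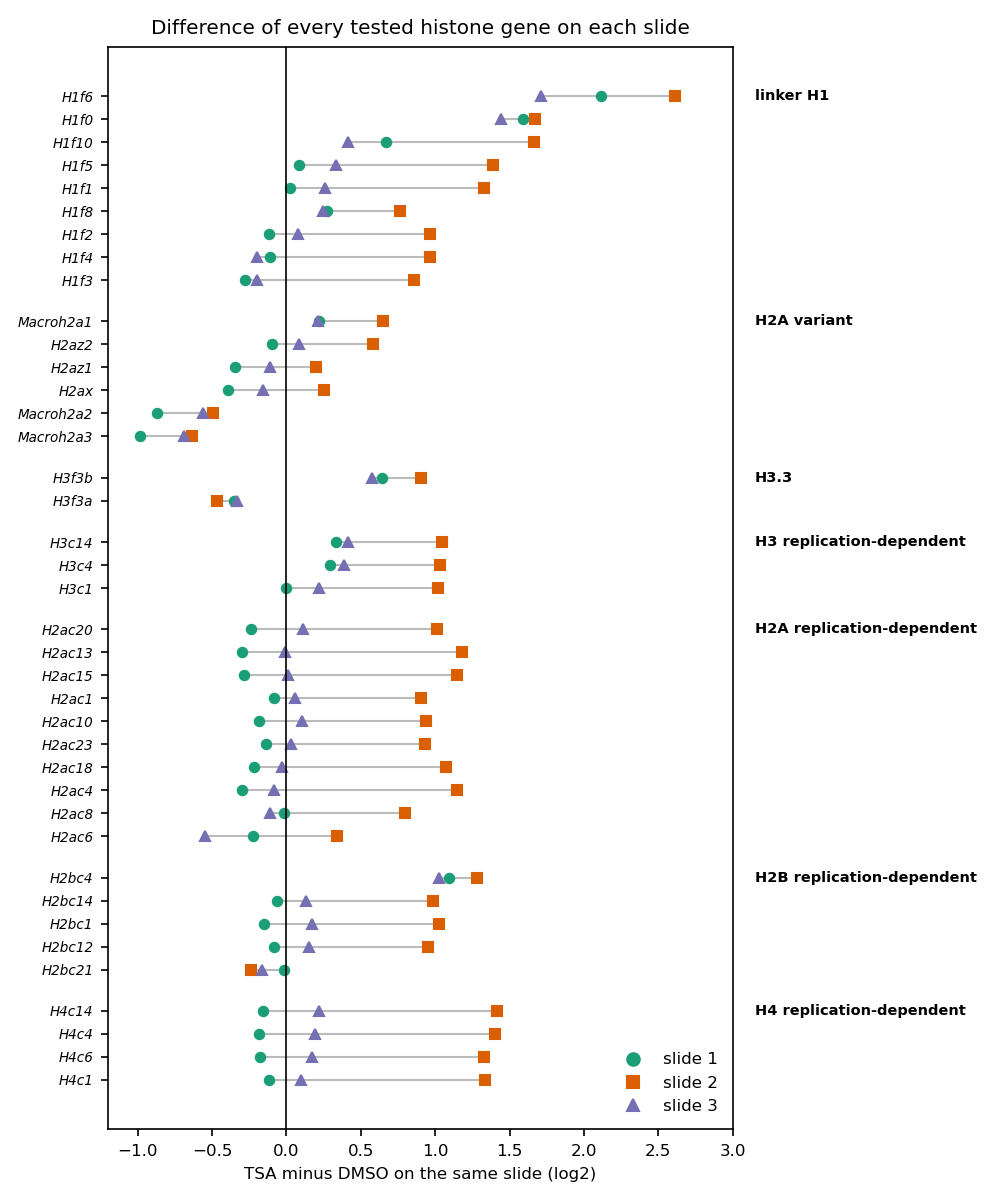
TSA minus DMSO on the same slide, in log2 units, for each of the 39 tested histone genes, grouped by class, with 1 point per slide and a grey line over their range. H1f6, H1f0 and H2bc4 lie above 1 on every slide, while H2A and H4 genes lie near or below 0 on slides 1 and 3 and, apart from H2ac6 and H2ac8, near or above 1 on slide 2.

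Over all 39 genes, the median difference was 0.31, and 32 genes had a higher mean in TSA and 7 a lower one. Over all 14523 tested genes, the median was 0.08, with 8426 higher at the mean and 6097 lower. Without TSA replicate 2 the median of the histone genes was -0.06, and on slides 1, 2 and 3 it was -0.11, 0.99 and 0.10. Higher in TSA on all 3 slides were 11 histone genes, against 32.5% of all tested genes, and lower on all 3 were 4, against 21.5%. The SD of the class median over the 3 slides was 0.81 for H4, 0.67 for linker genes, 0.64 for H2A, 0.56 for H2B, 0.40 for H3, 0.30 for H2A variants and 0.05 for H3.3, beside 0.18 for all tested genes. The H3.3 median is that of 2 genes that differed in opposite directions, so its SD does not give the spread of either. Without TSA replicate 2 the medians of H4, H2A and H1f1 to H1f5 were below 0, that of all linker genes was 0.07 against 0.54 with it, that of H2B was 0.0030 against 0.35, and that of H3 was 0.32 against 0.57.

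**Figure D3:**
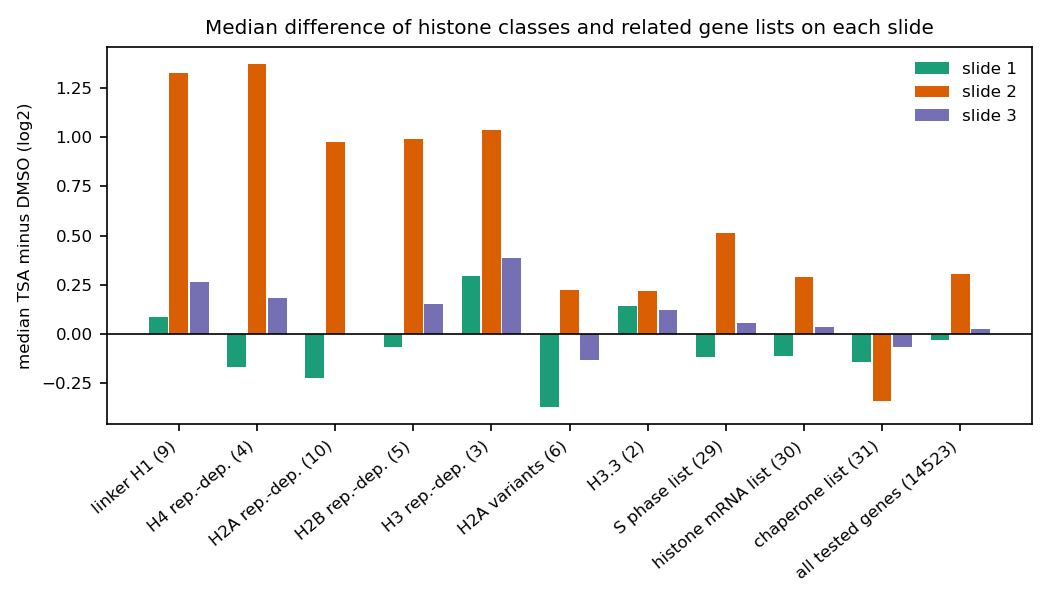
Median TSA minus DMSO, in log2 units, on slides 1, 2 and 3 for each histone class, for lists of S phase, histone messenger and chaperone genes, and for all tested genes, with the number of tested genes in brackets (rep.-dep., replication-dependent). On slide 2 the median of the H4 genes is 1.37 and that of the linker genes 1.33, against 0.30 for all tested genes.

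H1f6 and H2bc4, the members of the chromosome 13 cluster with the largest differences, are next to each other in the reference table. In gene order, H2ac6, with a difference of -0.14, precedes H2bc4 (1.13) and H1f6 (2.15). H2ac6 was near background, with 1 TSA array above it, so its value is uncertain. H2bc4 and H1f6 are followed by H4c3, which had no named probe, and by Hfe, a regulator of iron uptake that is no histone gene. Hfe gave 0.91 ± 0.33 (limma adjusted p = 0.329, and 0.129 in the slide-blocked fit). Its levels were -3.90, -2.97 and -3.99 on the TSA arrays, against -4.78, -4.32 and -4.49 on the DMSO arrays. All TSA arrays lay above all DMSO arrays, as they did for 16.3% of all tested genes. Without TSA replicate 2 Hfe gave 0.58 (limma adjusted p = 0.187). Hfe was dim and was named after its values were seen. The next tested histone gene, H1f2, gave 0.31. Of the 32 histone genes listed between H4c8 and H2ac1, 17 were tested and 15 were not, and the 15 tested genes other than H1f6 and H2bc4 gave -0.14 to 0.57. The neighbours that carry no named probe leave gaps on which these arrays give no value.

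**Figure D4:**
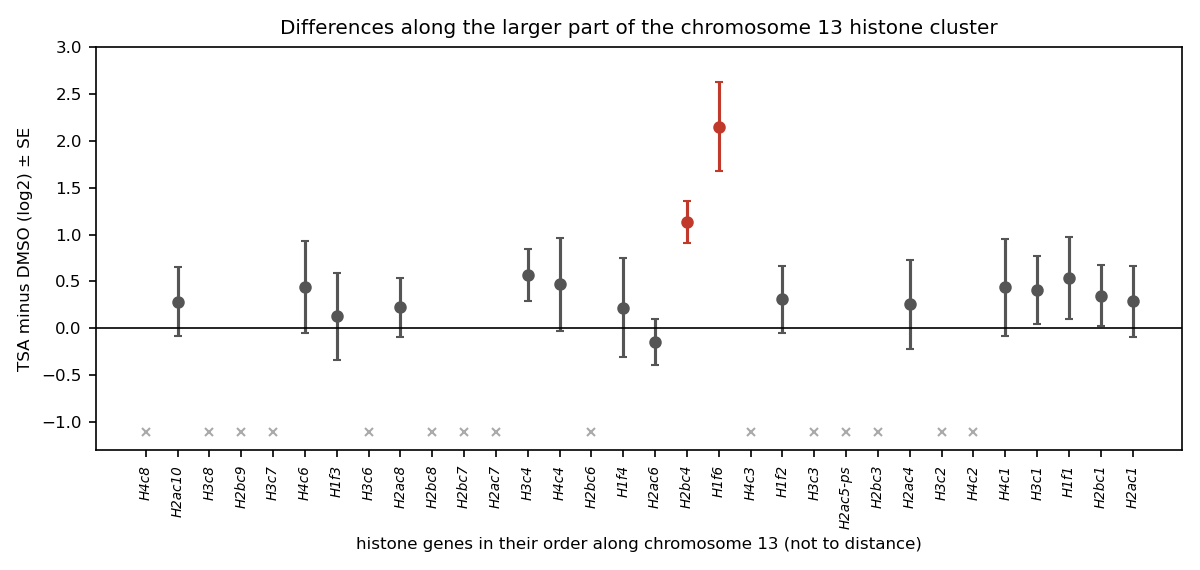
TSA minus DMSO, in log2 units with the standard error of limma, for histone genes in their order along the larger part of the chromosome 13 cluster, with crosses for the 15 genes that were not tested. The red points are H2bc4 at 1.13 and H1f6 at 2.15, and the other 15 tested genes lie between -0.14 and 0.57. H2ac6, at -0.14, was near background.

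The H3.3 genes differed in opposite directions at the mean, though both encode the same protein. H3f3b had levels of 7.46, 7.60 and 7.25 on the TSA arrays, against 6.82, 6.70 and 6.68 on the DMSO arrays, without overlap. Its difference was 0.71 ± 0.20 (limma adjusted p = 0.196, and 0.133 in the slide-blocked fit), at 0.64, 0.90 and 0.57 on the 3 slides. Both other probes of H3f3b gave 0.30 and 0.30, with TSA replicate 2 below DMSO replicate 2 for both (-0.04 and -0.46) and with overlap between the groups. Over all arrays the size thus depended on the probe. Without TSA replicate 2 the probes were closer, at 0.62 for the brightest and 0.51 and 0.73 for the others. H3f3a had levels of 5.99, 5.56 and 5.77 in TSA, against 6.35, 6.02 and 6.10 in DMSO, all TSA arrays below all DMSO arrays. Its difference was -0.38 ± 0.22 (adjusted p = 0.566), and its other probes gave -0.47 and -0.48, with overlap between the groups for both. Neither gene passed, and the difference between their differences was not tested.

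The tested H2A variant genes gave differences of -0.77 to 0.36, and 0 of the 6 passed. H2ax, whose phosphorylated product marks DNA breaks, gave -0.10 ± 0.26 (limma adjusted p = 0.887), and H2az1 and H2az2, which encode H2A.Z, gave -0.09 and 0.19. The class median was -0.09 over all arrays and -0.37, 0.22 and -0.13 on the 3 slides. Macroh2a1, which encodes the main macroH2A of repressed chromatin, gave 0.36 ± 0.40 and 0.45 ± 0.41 by its tested probes (adjusted p = 0.735 and 0.693). By the same probes it gave 0.03 and 0.07 without TSA replicate 2. Macroh2a2 gave -0.64 ± 0.33 (adjusted p = 0.526), at -0.87, -0.49 and -0.56 on the 3 slides. Macroh2a3, which the reference table lists as a transcribed pseudogene, had levels of 1.61, 2.34 and 1.90 in TSA, against 2.60, 2.97 and 2.59 in DMSO, without overlap, and gave -0.77 ± 0.26 (adjusted p = 0.296, 0.116 in the slide-blocked fit and 0.0718 without TSA replicate 2).

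The lists of genes that make, carry or bind histones held 0 genes past the threshold. Of 30 genes of histone transcription and messenger processing, all tested, 0 rose and 0 fell (limma, 0 also at an unadjusted p under 0.05), and the median was 0.04. Ccne1, a cyclin of the start of S phase, gave 0.52 ± 0.27 (adjusted p = 0.530) and Cpsf2, a subunit of the cleavage complex, gave -0.51 ± 0.27 (adjusted p = 0.544). Of 29 tested S phase genes of 30, 0 rose and 0 fell (0 at an unadjusted p under 0.05), the median was 0.17, and it was -0.12, 0.51 and 0.06 on slides 1, 2 and 3, so the list median too was highest on slide 2. Rfc4, a subunit of the clamp loader, gave 0.46 ± 0.24 (adjusted p = 0.538). Of 31 tested histone chaperones of 35, 0 rose and 0 fell (0 at an unadjusted p under 0.05), with a median of -0.09. The slide-blocked fit called 0 in these 3 lists as well. Over all tested genes, 12.1% were higher and 2.8% lower at an unadjusted limma p under 0.05 without the block. Asf1b, a chaperone that hands H3 and H4 to the replication fork, gave 0.55 ± 0.25 (adjusted p = 0.477), Cabin1, of the H3.3 chaperone HIRA, 0.44 ± 0.23 (adjusted p = 0.524), Ubn1, also of that complex, -0.38 ± 0.20 (adjusted p = 0.540), and Nasp, a chaperone of free H3, -0.74 ± 0.41 (adjusted p = 0.558). In that order they gave 0.32, 0.29, -0.34 and -0.29 without TSA replicate 2.

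Of 16 chromatin proteins that bind as linkers or beside them, all tested, 12 had a lower mean in TSA and 4 a higher one. Of all 14523 tested genes, 6097 had a lower mean and 8426 a higher one. The median of the 16 was -0.27, and by limma 0 of them rose and 0 fell. At an unadjusted limma p under 0.05, 1 was higher and 3 were lower, against 12.1% and 2.8% of all tested genes. On all TSA arrays, 6 of the 16 lay below all DMSO arrays, against 8.36% of all tested genes, and 1 lay above, against 16.3%. Hmgn3, a nucleosome-binding protein, had levels of 1.59, 0.75 and 1.50 in TSA, against 0.30, -0.02 and 0.38 in DMSO, and gave 1.06 ± 0.29 (adjusted p = 0.184), passing without TSA replicate 2 (adjusted p = 0.0297). Cbx5, the heterochromatin protein HP1 alpha, gave -0.97 ± 0.36 (adjusted p = 0.344), and Hp1bp3, a protein related to linker histones, gave -0.50 ± 0.19 (adjusted p = 0.376).

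Of 12 tested genes out of 22 named for testis and oocyte chromatin and for other histones, 9 had a higher mean in TSA. Of all 14523 tested genes, 8426 did. The median of the 12 was 0.32 (-0.04 without TSA replicate 2), and by limma 0 of them rose and 0 fell. At an unadjusted limma p under 0.05, 2 were higher and 0 lower, against 12.1% and 2.8% of all tested genes. The largest differences were those of Brdt, a bromodomain protein of spermatocytes, at 1.76 ± 0.31 (limma adjusted p = 0.0624), and Hspa2, a chaperone of spermatocytes, at 1.17 ± 0.23 (adjusted p = 0.0827). Both passed without TSA replicate 2 (adjusted p = 0.0241 and 0.0494), and in the slide-blocked fit they did not (adjusted p = 0.0536 and 0.0577). Brdt had levels of -3.60, -4.38 and -3.67 in TSA, against -6.01, -5.62 and -5.31 in DMSO, and Hspa2 had 0.17, 0.53 and 0.03 in TSA, against -1.14, -0.77 and -0.87 in DMSO. The DMSO levels of Brdt were near background, so the size of its difference is uncertain. Of the 12 genes, 11 were above background on all 6 arrays. Prm1, a protamine that replaces histones in sperm, gave 0.79 ± 0.56 (adjusted p = 0.631) and H2al2a, a testis H2A variant, 0.33 ± 0.28 (adjusted p = 0.673). Brdt and Hspa2 were the 2 of the 12 genes that lay above every DMSO array on every TSA array, a share near the 16.3% of all tested genes.

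Markers of cell types bear on the label of these cultures as ESC-derived. All 5 primed epiblast markers, all 5 early neural markers and all 5 naive markers were above background on all 6 arrays, so genes of all 3 states were detected in both groups. Early neural markers summed to 8.09 to 8.90 times the 75th percentile in TSA, against 10.1 to 11.6 in DMSO, with a median difference of -0.43. On all slides 4 of 5 were lower, against 21.5% of all tested genes. With or without the block 0 were called, and 1 was lower at an unadjusted limma p under 0.05 (2.8% of all tested genes). Primed epiblast markers summed to 134 to 180 in TSA, against 125 to 195 in DMSO, and naive markers to 6.56 to 9.01 in TSA, against 4.73 to 8.27 in DMSO. Genes of the 2-cell embryo moved with treatment: the 4 that were above background on all 6 arrays rose (Zscan4c, Tcstv1, Usp17la and Arg2), against 1.36% of all tested genes. Tcstv3 was above background on all 3 TSA arrays and 0 DMSO arrays. The summed level of the 5 was 3.25 to 6.42 times the 75th percentile in TSA, against 0.322 to 0.563 in DMSO. That sum includes Tcstv3, which passed the filter through its TSA arrays only. Mesendoderm markers moved with slide 2 in both treatments, with a median deviation of 2.37 on TSA replicate 2 and 2.20 on DMSO replicate 2 from the rest of their groups, and a summed level of 7.91 to 22.8 in TSA, against 3.44 to 11.5 in DMSO. All 5 were also higher in TSA at the mean, with a median difference of 1.57 (2.25, 1.05 and 1.39 on slides 1, 2 and 3). For all 5 the TSA and DMSO arrays overlapped. Higher on all slides were 4 of 5, against 32.5% of all tested genes. Without the block 0 passed, and with it 2 did (Mixl1 and Evx1), against 3.2% of all tested genes that rose. Fibroblast or feeder markers summed to 10.3 to 14.4 in TSA, against 4.75 to 7.24 in DMSO. At the mean 4 of the 5 were higher and 1 was lower, at -0.84 and lower on all slides. Without the block 0 of 5 passed. At an unadjusted limma p under 0.05, 3 were higher and 0 lower, against 12.1% and 2.8% of all tested genes. Col1a2 gave 1.77 (limma adjusted p = 0.0746, and 0.0473 with the block, where it passed). Of 4 neuron markers, Mapt rose (1.83 ± 0.24, adjusted p = 0.0361) and Dcx gave -1.61 ± 0.63 (adjusted p = 0.382, and 0.0424 with the block, where it passed), and their summed level was 2.38 to 4.08 in TSA, against 2.54 to 3.85 in DMSO. The part of these cell types in the histone values was not tested, and in such bulk RNA fewer cells of a type and less RNA per cell cannot be told apart.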

How the data were processed

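Processed intensity values of 6 single-colour arrays were deposited by the authors. Per the file headers, they come from Agilent Feature Extraction (version 10.7 per the submitters' processing notes), background-subtracted within the array and not scaled between arrays. The authors also deposited 1 table of log2 values, whose normalization is not given in the sources used here. Control spots and outlier spots were left out, and log2 of the processed signal minus the array's 75th percentile was averaged per probe. Probes well above background on at least 3 of 6 arrays were tested with limma 3.58.1 in R 4.3.3 (lmFit and eBayes, two-sided, Benjamini-Hochberg over 28160 probes, threshold 0.05), with treatment as the only term. Tables and figures were made with matplotlib 3.10.9, pandas 2.3.3 and numpy 2.4.6 under Python 3.11.15, and the fit was tested on simulated data. RefSeq identifiers gave 27471 probes 1 gene and 0 several, while 13703 had no named gene. P-values reflect the spread among experiments that the labels call independent, and the number of arrays limits precision.

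Deviations from group means correlated at 0.484 to 0.614 between arrays of 1 slide and at -0.568 to 0.0916 between slides, so the replicate numbers pair the samples. The array design and the reference table follow different builds, so only promoter windows have positions. Named were H1f0, H2bc4, members past the threshold with or without the block, linker and variant genes, the 4 largest differences and the brightest gene of each replication-dependent class, and up to 4 genes per list by adjusted p; Hfe was named after its values were seen. Where a class was uniform its genes are given as a range. The values of 1 gene that the rule names are not reported here. Members, lists and tests were chosen with earlier results of these data known. The alternatives were other normalizations, the authors' table, other filters, the slide as a block, trend and robust moderation, outlier spots kept, array weights, arrays left out, single slides and the mean over probes; leaving out both arrays of slide 2 was added after seeing the data.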

Additional observations from a re-analysis of the deposited data

How the results depend on the processing

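H1f0 gave 1.44 to 1.67 under every alternative run and lost its call without a filter (1.57, adjusted p = 0.0698), without both arrays of slide 2 (1.52, adjusted p = 0.0570) and without any 1 array other than TSA replicate 2 (range over the 6 arrays 1.51 to 1.65); slide 3 alone gave 1.44. H2bc4 passed with array weights (0.94, adjusted p = 0.0060) and without TSA replicate 2 (0.98, range over the 6 arrays 0.98 to 1.25), and slide 2 alone gave 1.28. Higher histone genes numbered 1 with all arrays, 2 with the slide as a block, 4 with array weights (H1f0, H1f6, H2bc4 and H3f3b), 0 without a filter, 0 without slide 2, and 0 to 2 with 1 array left out; 1 was lower with array weights (Macroh2a3). With the slide as replicate block, H1f0 gave 1.57, and the block changed no call of a histone gene other than H1f6. Where limma called 0, the unadjusted p was under 0.05 for 4 to 5 higher histone genes. Of all probes, 259 were higher and 10 lower. The counts were 618 and 41 with the block, 2105 and 879 with array weights, 56 and 0 without a filter, 0 and 0 without slide 2 (5006 at an unadjusted p under 0.05), and 0 to 571 and 0 to 54 with 1 array left out (2006 to 3327 at an unadjusted p under 0.05 where limma called 0). Higher probes numbered 127 with normexp, 148 with quantile normalization, 137 with median centring and 142 in the authors' table. Slide 2 alone gave class medians of 0.97 for H2A, 0.22 for H2A variants, 0.99 for H2B, 1.03 for H3, 1.37 for H4, 1.33 for linker genes and 0.22 for H3.3. The H3.3 median of 0.16 was 0.0947 with normexp, 0.0816 with median centring, 0.0563 in the authors' table, 0.0789 with array weights, 0.10 to 0.23 with 1 array left out and -0.0051 with the mean over probes. In most of these cases the cause was not tested; leaving out arrays and the filter change how much is tested. No called value changed direction, while with array weights the H2A, H4 and H2B medians were -0.22, -0.16 and -0.04. Matching members by symbol was not possible, since the scanner files used here carry no symbol column, and normexp was run on median spot signals. Differences in dim genes such as H2ac6, near background, are the least certain.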
